A study of Drosophila melanogaster x Drosophila simulans with 3 samples.

Results

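Exonic regions whose length differs between Drosophila melanogaster and Drosophila simulans by a whole number of codons were examined for reads of the 2 parental alleles in F1 hybrid heads. A region was taken when its length in the D. melanogaster reference minus its length in the D. simulans reference, both given in the deposited tables, was not 0 and was a multiple of 3. This rule used no read count and chose 3244 of 60040 regions. Of the others, 49214 had equal lengths and 7582 differed by a number of bases that is not a multiple of 3. "In-frame" refers here to length alone, because the tables do not say whether a region is coding. The tables pair region identifiers with no gene, coordinate or sequence, so regions are described by length, length difference and identity between the species.

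All libraries belonged to a single group. RNA came from heads of virgin female F1 hybrids, with mothers of the D. melanogaster strain Berlin and fathers of the D. simulans strain C167.4, frozen at an age of 1 to 1.5 days. Each of the 3 replicate libraries was made from its own pool of 200 flies, after selection of polyadenylated RNA, and was read as paired ends of 54 bases. Each species was represented by 1 strain and the cross was made in 1 direction, so effects of species and of parent cannot be told apart. Heads hold several tissues, and markers of those tissues were not examined because regions are not paired with genes. A genomic DNA control for the same hybrid genotype was not analysed here, so an excess of reads of one allele is not by itself unequal expression.

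In coding sequence, bases are read in codons of 3, so an insertion or deletion of whole codons adds or removes amino acids and leaves the downstream reading frame intact, whereas any other length change shifts the frame. Short tandem codon repeats are a common source of such changes. In an F1 hybrid both alleles of a gene are transcribed in the same nuclei under the same regulatory proteins, which is why unequal allele expression in hybrids is used to detect cis-regulatory differences. The reading of an allele depends on placing each sequencing read on one of 2 references, and a gap between the references is one of the differences that can separate them.

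Whole-codon differences made up 30.0% of the 10826 regions that differed in length. They were mostly longer in D. melanogaster, in 2910 of 3244 regions (89.7%), and so were differences that are not a multiple of 3, in 5601 of 7582 (73.9%). The share longer in D. melanogaster followed the size of the gap whether or not it was a multiple of 3, at 60.2% for 1 base, 70.2% for 2, 84.2% for 3, 89.6% for 4, 93.6% for 5, 96.9% for 6 and 96.9% for 7 bases. Over all regions that differed in length, a difference of 1 base was the most frequent, in 3324 regions. Among multiples of 3 it was a difference of 3 bases, with 1561 regions longer in D. melanogaster and 292 longer in D. simulans. Another 709 regions were longer by 6 bases in D. melanogaster and 23 in D. simulans. Differences of 9 and 12 bases in favour of D. melanogaster were found in 289 and 172 regions, and in favour of D. simulans in 11 and 2 regions. The longest were 54 bases more in D. melanogaster and 45 bases more in D. simulans, each in 1 region. How the references were built is not given in the sources used here, and its part in the excess of bases in D. melanogaster was not tested.

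**Figure D1:**
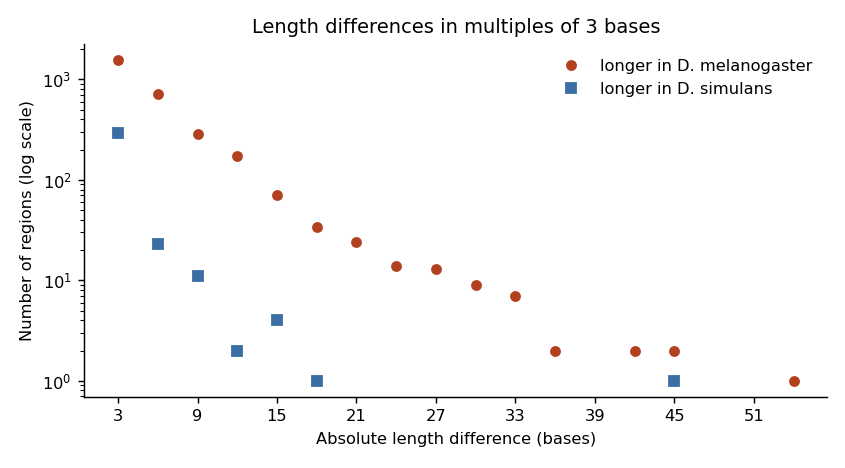
Number of regions (vertical axis, log scale) by absolute length difference in bases (horizontal axis), for the 3244 regions that differ by a multiple of 3. Circles are regions longer in D. melanogaster and squares are regions longer in D. simulans; at 3 bases the counts are 1561 and 292, and at 6 bases 709 and 23.

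These regions were long. Their median length in the D. melanogaster reference was 820 bases (quartiles 441 and 1480), against 641 bases in regions whose difference was not a multiple of 3 and 230 bases in equal-length regions. Of all regions of at most 200 bases, 0.881% differed by whole codons, and of all regions over 1600 bases, 21.9% did. Identity between the species was similar, with a median of 96.4% in regions with an in-frame difference and 96.8% in equal-length regions. Identity does not count the gap itself: in all 199 members of at most 200 bases it corresponded to a whole number of matching positions over the shorter length, within 0.006 percentage points, and over the longer length in 7. Identifiers that begin with F, a letter the labels do not define, were found for 23.7% of regions with an in-frame difference, 27.7% of those with another difference and 7.77% of equal-length regions.

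The libraries held 26406916 to 29004108 reads over all regions. Regions with an in-frame difference received 11.2% ± 0.147 (SD, n = 3) of the reads that could be assigned to an allele, or 2032701, 2060812 and 2257777 reads in replicates 1 to 3. Match quality set replicate 2 apart: 30.4% of these assigned reads were in exact-match classes, against 61.3% in replicate 1 and 55.8% in replicate 3. The reads were concentrated, with 15.5% of them in 10 regions and 44.5% in 100. In RNA from whole heads, a low read number can come from fewer expressing cells or from less RNA per cell, and these cannot be told apart.

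The D. melanogaster allele supplied slightly more of the assigned reads in all 3 libraries. Its share over the regions with an in-frame difference was 52.5%, 52.2% and 52.0%, with a mean of 52.3% ± 0.236 (SD, n = 3), and over equal-length regions 55.3%, 54.8% and 54.2%, with a mean of 54.8% ± 0.589. The ranges of the 2 sets of regions did not overlap. These shares weight each region by its reads, and the sets were not matched. Without the 10 in-frame regions with the most reads the mean share was 52.4% ± 0.236. Equal-length regions were not left out in this way. Medians over regions with a mean of at least 20 assigned reads per library had the reverse order. In replicates 1 to 3, their log2 ratios were 0.12, 0.12 and 0.10 in in-frame regions. In equal-length regions they were 0.086, 0.084 and 0.074.

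Allele ratios were taken in the 2794 of 3244 regions (86.1%) with a mean of at least 20 assigned reads per library. Of the 450 others, 60 had no read of any kind, 4 had unassigned reads only and 386 had too few assigned reads. Just inside the limit, 20 regions with a mean of 20 to 21 reads had log2 ratios of -2.29 to 2.19 with a median of 0.12. Just outside it, 17 regions with a mean of 19 to under 20 reads had ratios of -1.65 to 1.02 with a median of 0.15. Ratios are D. melanogaster over D. simulans reads, and a region was called imbalanced at an adjusted p under 0.05 in the quasi-likelihood test of edgeR, adjusted by Benjamini-Hochberg over all 33303 regions tested.

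Allelic imbalance in read numbers was called in 1187 of the 2794 tested regions (42.5%), against 35.6% of all regions tested. The D. melanogaster allele was higher in 834 (29.8%, against 23.4% of all regions tested) and the D. simulans allele in 353 (12.6%, against 12.2%). In 1161 (97.8%) of them each library gave that direction. The calls came from the same 3 libraries, so this agreement is not independent of them. The shares over all regions tested were not matched for depth. Tested in-frame regions had a median of 229 assigned reads per library, against 97 in tested equal-length regions. The share of in-frame regions called rose from 25.5% at 20 to 50 reads to 61.9% at 1000 or more. In equal-length regions it rose from 19.7% to 67.5%. Most differences were small. Log2 ratios had a median of 0.11, the quartiles were -0.15 and 0.39, and 2052 regions (73.4%) lay within 0.5 of equality. Among called regions the median absolute log2 ratio was 0.54, or 1.46-fold. Called differences of 2-fold or more were found in 151 regions toward D. melanogaster (5.40%, against 6.91% of all regions tested) and in 54 toward D. simulans (1.93%, against 2.89%). Differences of 4-fold or more numbered 33 toward D. melanogaster (against 2.43% of all regions tested) and 19 toward D. simulans (against 0.901%).

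The lean to D. melanogaster was small and depended on scaling. Over the in-frame regions the median log2 ratio was 0.12, 0.12 and 0.10 in replicates 1 to 3 without scaling between alleles, and 0.022 in the fit with TMM scaling. TMM scaling moved the median of all tested regions by -0.09 and split the calls into 645 toward D. melanogaster and 522 toward D. simulans (55.3% toward D. melanogaster, against 70.3% without scaling). The same scaling gave calls in 34.7% of all regions tested, 18.2% and 16.5% in the 2 directions. The DESeq2 Wald test called 606 of the 2794 regions (433 and 173), all in the same direction as edgeR, against 17.8% of all regions tested (12.2% and 5.65%). A test against a minimum absolute log2 ratio of 0.5 called 300 (218 and 82), against 11.2% of all regions tested (7.89% and 3.28%).

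**Figure D2:**
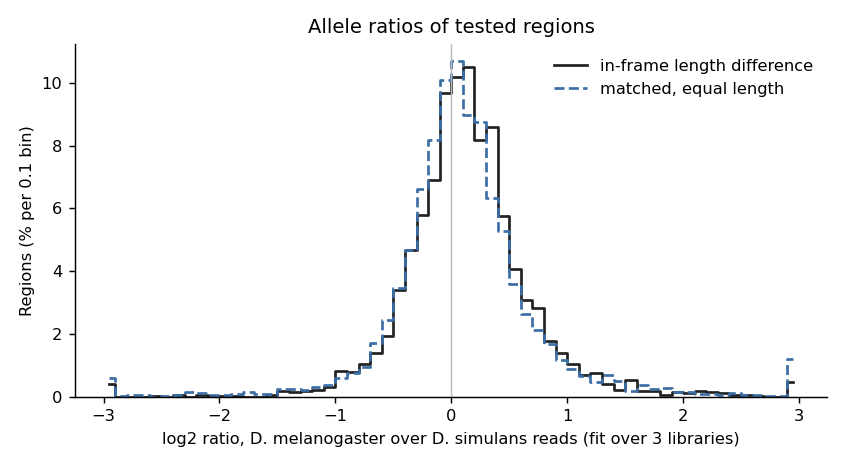
Distribution of the fitted log2 ratio of D. melanogaster over D. simulans reads (horizontal axis, bins of 0.1) as a percent of regions (vertical axis). The solid line is tested regions with an in-frame length difference, the dashed line equal-length regions matched on identity and length, and the outermost bins hold all values beyond them; the 2 lines lie close together, with medians of 0.11 and 0.076.

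Large ratios were sought among called regions with a mean of 100 or more assigned reads and no library with under 4 reads of an allele. The same direction in all 3 libraries was also required, so agreement in direction was fixed by the choice. The largest ratio toward D. melanogaster was that of region F694_SI. This region was 2857 bases long, 3 bases longer in D. melanogaster, with 92.54% identity. It had 4731, 4257 and 5060 D. melanogaster reads in replicates 1 to 3, against 237, 246 and 255 D. simulans reads. The D. melanogaster share was 95% ± 0.392 (SD, n = 3), and the log2 ratio was 4.25 ± 0.06 (SE). The alleles were far apart in all 3 libraries, and the libraries lay within 1 percentage point of each other.

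The next largest ratio was that of a region of 311 bases (D. melanogaster longer by 3), with 203, 175 and 200 D. melanogaster reads against 31, 16 and 27 D. simulans reads and a log2 ratio of 2.96 ± 0.17 (edgeR adjusted p = 1.75e-53). A region of 719 bases, in which D. simulans was longer by 45 bases, had 141, 168 and 222 D. melanogaster reads against 39, 19 and 31 D. simulans reads. Its log2 ratio was 2.57 ± 0.17 (edgeR adjusted p = 1.47e-42). The shorter allele was thus the one with more reads in this region, and the alleles did not overlap between libraries. The 10 regions of this list had log2 ratios of 1.96 to 4.25 and identities of 91.36% to 97.76%, and 8 of them were longer in D. melanogaster.

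The largest ratio toward D. simulans under the same conditions was that of region S32383_SI, 1460 bases long, 6 bases longer in D. melanogaster, with 99.11% identity. It had 200, 190 and 66 D. melanogaster reads against 9688, 9362 and 4068 D. simulans reads. Its D. melanogaster share was 1.87% ± 0.237 (SD, n = 3) and its log2 ratio -5.67 ± 0.06 (SE). Replicate 3 had the fewest reads of both alleles, and the share was low in all 3 libraries. Although the 2 references are nearly identical over this region, 34, 16 and 2 of its reads matched both equally, and all of its assigned reads but 4 in replicate 1 were placed on one genome only.

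A region of 1127 bases (D. melanogaster longer by 3) had 53, 41 and 58 D. melanogaster reads against 1710, 1509 and 1878 D. simulans reads, with a log2 ratio of -5.07 ± 0.09 (edgeR adjusted p = 4.84e-275). A region of 1025 bases (D. melanogaster longer by 6, 84.3% identity) had 58, 37 and 44 D. melanogaster reads against 820, 829 and 857 D. simulans reads, with a log2 ratio of -4.17 ± 0.11 (edgeR adjusted p = 8.11e-185). The alleles were separated in every library in both, and a shared direction was a condition of this list. The 10 regions of this list had log2 ratios of -5.67 to -1.50, and 8 of them were longer in D. melanogaster, as in the opposite list.

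The 5 called regions with the most reads per direction were also taken only with the same direction in all 3 libraries. Their log2 ratios were 0.079 to 0.88 toward D. melanogaster and -0.81 to -0.20 toward D. simulans. Region F32072_SI (1634 bases, D. simulans longer by 3) had 30265, 29176 and 35686 D. melanogaster reads against 28663, 27247 and 34245 D. simulans reads. Its D. melanogaster share was 51.4% ± 0.340 and its log2 ratio 0.08 ± 0.03 (edgeR adjusted p = 0.0425). This call did not hold in other fits, with an adjusted p of 0.25 in DESeq2 and a log2 ratio of -0.01 with TMM scaling in edgeR. Region F57135_SI (408 bases, D. simulans longer by 3) had 13339, 9968 and 14623 D. melanogaster reads against 21371, 20534 and 23791 D. simulans reads. Its D. melanogaster share was 36.4% ± 3.22 and its log2 ratio -0.81 ± 0.04 (edgeR adjusted p = 2.44e-86). Its lean to D. simulans was largest in replicate 2, with log2 ratios of -0.68, -1.04 and -0.70 in replicates 1 to 3. Their own standard error is 0.12, wider than the fitted 0.04, which borrows the spread of all regions, and the DESeq2 adjusted p was 1.7e-10.

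A region of 221 bases (D. melanogaster longer by 3) stood out among the most-read regions, with 25571, 19950 and 28572 D. melanogaster reads against 15030, 10340 and 15187 D. simulans reads. Its log2 ratio was 0.88 ± 0.03 (edgeR adjusted p = 3.09e-101), the largest of the 5 most-read regions called toward D. melanogaster. The 5 regions with the most reads that were not called had log2 ratios of -0.10 to 0.09. The first of them, of 1411 bases and longer by 6 in D. melanogaster, had 14419, 13441 and 17830 D. melanogaster reads against 13441, 13150 and 17459 D. simulans reads, and a log2 ratio of 0.05 ± 0.04 (edgeR adjusted p = 0.238).

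**Figure D3:**
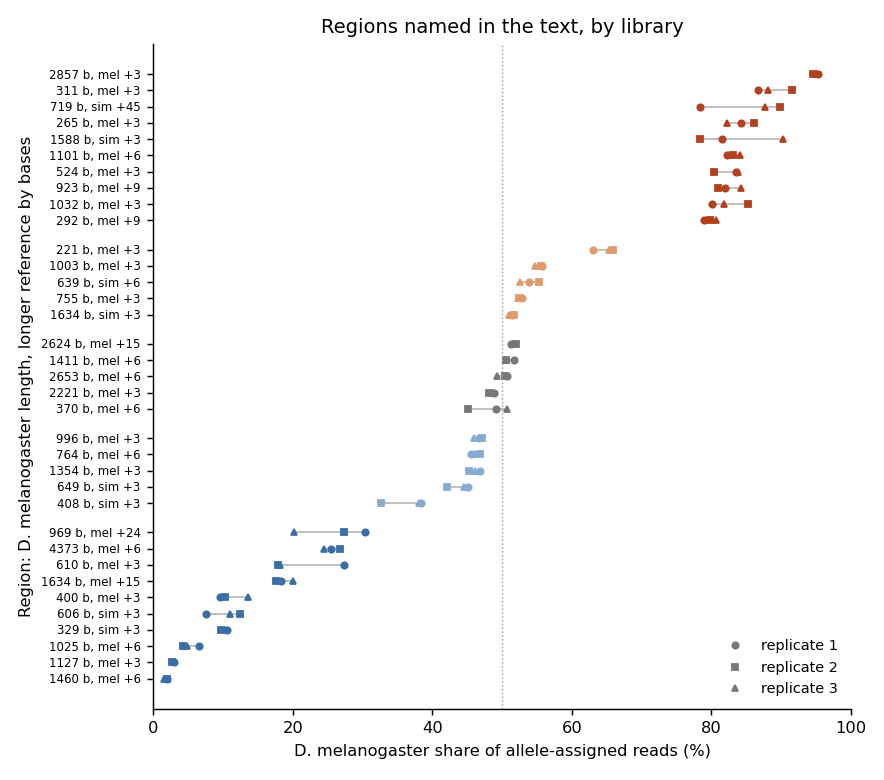
D. melanogaster share of allele-assigned reads (horizontal axis, percent) in replicates 1, 2 and 3 (circle, square, triangle) for the regions of 5 lists, named on the vertical axis by D. melanogaster length and by which reference is longer and by how many bases. From top to bottom are the 10 largest ratios toward D. melanogaster, the 5 most-read calls toward D. melanogaster, the 5 most-read regions not called, the 5 most-read calls toward D. simulans and the 10 largest ratios toward D. simulans; the dotted line marks 50%.

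Among the regions with the largest length differences, calls were made in both directions. The region with the largest difference, 8226 bases long and 54 bases longer in D. melanogaster, had 2504, 2119 and 2191 D. melanogaster reads against 1913, 1726 and 1796 D. simulans reads, with a log2 ratio of 0.32 ± 0.05 (edgeR adjusted p = 5.72e-10). A region of 5609 bases, longer by 45 in D. melanogaster, had 303, 281 and 260 D. melanogaster reads against 313, 284 and 305 D. simulans reads. It was not called, with a log2 ratio of -0.10 ± 0.09 (edgeR adjusted p = 0.452). Of the 5 regions with the largest excess of bases in D. melanogaster and at least 100 reads per library, 3 were called toward D. melanogaster and 1 toward D. simulans. Of the 5 with the largest excess in D. simulans, 4 were called toward D. melanogaster and 1 toward D. simulans. Over all regions tested, the shares called were 23.4% toward D. melanogaster and 12.2% toward D. simulans. With DESeq2, a region of 1251 bases (D. melanogaster longer by 36) and one of 1038 (D. simulans longer by 15) were not called. Their DESeq2 Wald adjusted p were 0.14 and 0.12, and edgeR had called both toward D. melanogaster.

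No read of the other allele was found in 8 tested regions, which had D. melanogaster reads alone in 4 cases and D. simulans reads alone in 4. The one with the most D. melanogaster reads (171 bases, D. melanogaster longer by 24) had 46, 49 and 33 of them, at least 42.7-fold more than the limit of 3 D. simulans reads over the 3 libraries that a count of 0 allows. The one with the most D. simulans reads (912 bases, D. melanogaster longer by 9) had 191, 198 and 141 of them, at least 177-fold more than that limit for D. melanogaster. All reads of this region of 912 bases were placed on one genome only, with 0 unassigned reads in each library. Such limits cover counting error only. A D. melanogaster share of 98% or more was found in 7 tested in-frame regions (0.251%), against 1.02% of tested equal-length regions, and a share of 2% or less in 5 (0.179%), against 0.212%. In these 12 in-frame regions the median share of assigned reads placed on one genome only was 99.99%, against 43.5% in all tested in-frame regions. That share was over 90% in 7 of the 12. The part of read placement in such extreme allele shares was not tested.

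One member was read almost only as D. melanogaster and held a large part of the unassigned reads. It was 1944 bases long, 6 bases longer in D. melanogaster, with 98.19% identity. It had 11483, 12695 and 4555 D. melanogaster reads against 1, 0 and 0 D. simulans reads, and 394794, 707702 and 155430 reads that matched both references equally. The last were 35.9%, 48.8% and 16.4% of all unassigned reads of the in-frame regions. With this region, 35.3% ± 5.89 (SD, n = 3) of the reads of in-frame regions were unassigned, and without it 26.2% ± 0.410, close to the 26.9% ± 0.721 of equal-length regions. Its identifier lies within a run of 37 consecutive identifier numbers that also holds S32383_SI and the region of 912 bases. In that run 12 regions were tested, and 10 of them were called with a difference of 4-fold or more, in both directions. These regions were set side by side after their values were seen, and identifier numbers are not known to follow the genome.

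The comparison with equal-length regions asked whether a whole-codon difference goes with more imbalance at the same length and divergence. For each tested region, up to 5 tested equal-length regions were taken with identity within 0.5 percentage points and length within 10%; 2769 of the 2794 regions had such matches, drawn from 7762 regions. Calls were made in 42.4% of the in-frame regions and 38.4% of their matches, a difference of 3.91 percentage points. The in-frame regions were also read more deeply, with a median of 228 assigned reads per library against 182 in the matches. When assigned reads were matched as well, within 1.5-fold, the shares were 41.1% and 39.2%, a difference of 1.88 points. The size of the imbalance differed little, and its order depended on the matching. The median absolute log2 ratio over libraries was 0.319 in the in-frame regions and 0.323 in the matches without matching of reads, and 0.319 and 0.301 with it. The second difference was 0.018 ± 0.0080 (SD, n = 3), positive in all 3 libraries (two-sided exact permutation p = 0.25).

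The direction differed slightly between the 2 sets. Calls toward D. melanogaster made up 29.9% of the in-frame regions and 23.9% of the matches, and calls toward D. simulans 12.5% and 14.6%. Median log2 ratios were 0.11 in the in-frame regions and 0.076 in the matches. The difference was 0.039 ± 0.0092 (SD, n = 3 libraries) and was positive in all 3 libraries, with a two-sided exact permutation p of 0.25, the smallest that 3 libraries allow. The D. melanogaster allele is the longer one in most in-frame regions, and the median of the absolute log2 ratio of the 2 lengths was 0.0077. Per base of each allele, the median log2 ratio of the in-frame regions was 0.10. The difference from the matches was then 0.032 ± 0.010 (SD, n = 3 libraries). The part of length in the lean was not tested.

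Without scaling between alleles, regions longer in either species leaned to D. melanogaster. Their median log2 ratio averaged 0.12 in regions longer in D. melanogaster and 0.084 in regions longer in D. simulans. The difference was 0.032 ± 0.022 (SD, n = 3), with values of 0.027, 0.013 and 0.055 in replicates 1 to 3 (two-sided exact permutation p = 0.25). Per base of each allele this difference was 0.016, with values of 0.013, -0.0037 and 0.039 in replicates 1 to 3. With reads placed on both genomes alone it was -0.026. The medians of these 2 groups were not taken with TMM scaling, which moved the median of all tested regions by -0.09.

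Among regions longer in D. melanogaster, the share of called regions was higher for the larger length differences, and so were assigned reads. Where D. melanogaster was longer by 3 bases, 39.3% of regions were called, against 37.6% of their equal-length matches. By 6 bases the shares were 41.9% and 37.5%, by 9 bases 43.0% and 37.6%, and by 12 bases 46.1% and 39.6%. By 15 or more bases they were 59.4% and 43.0%, with a median of 591 assigned reads in the in-frame regions and 260 in the matches. With assigned reads also matched, this last class gave 58.9% and 42.8% (141 regions), and the class of 3 bases 38.6% and 39.0% (1268 regions). The classes between them gave 40.7% and 38.2% at 6 bases, 42.0% and 36.9% at 9, and 42.6% and 41.5% at 12. The excess over the matches thus did not rise steadily up to 12 bases. Where D. simulans was longer by 3 bases the shares were 42.2% and 41.2%. By direction, calls toward D. melanogaster were made in 27.3% of regions longer by 3 bases in D. melanogaster (matches 23.5%). At 15 or more bases they were made in 42.5% (matches 27.4%). Calls toward D. simulans were made in 12.0% (matches 14.1%) and 16.9% (matches 15.6%) of these 2 classes. No test was made over regions, since regions are not replicates.

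Reads of the in-frame regions were more often placed on one genome only. Each assigned read belongs to a class in which it was placed on one reference alone, or to a class in which it was placed on both and matched one better. The share of the first kind was a median of 45.4%, 39.6% and 44.4% over the in-frame regions in replicates 1 to 3, against 35.7%, 29.2% and 35.4% over the matched equal-length regions. The shares did not overlap between the 2 sets of regions, and replicate 2 was the lowest in both. The mean difference was 9.66 percentage points ± 0.695 (SD, n = 3), positive in all 3 libraries (two-sided exact permutation p = 0.25, the smallest possible), and 9.32 without replicate 2. In 2004, 2113 and 2016 of the 2769 regions the share was above that of the region's own matches.

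The excess of reads placed on one genome was larger with longer gaps. Where D. melanogaster was longer by 3 bases the share was 41.8%, against 33.6% in the matches. By 9 bases it was 43.6% against 30.5%, and by 15 or more bases 48.6% against 33.8%. It was also larger in short regions, with 67.3% against 40.7% in regions of at most 200 bases, and 38.4% against 32.8% in regions over 1600 bases. In the regions with the most divergent references, up to 93% identity, the shares were close, at 75.2% against 73.9%. In the 42 regions over 99% identity they were 42.6% against 4.60%, and 40, 41 and 41 of these regions were above their own matches in replicates 1 to 3.

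**Figure D4:**
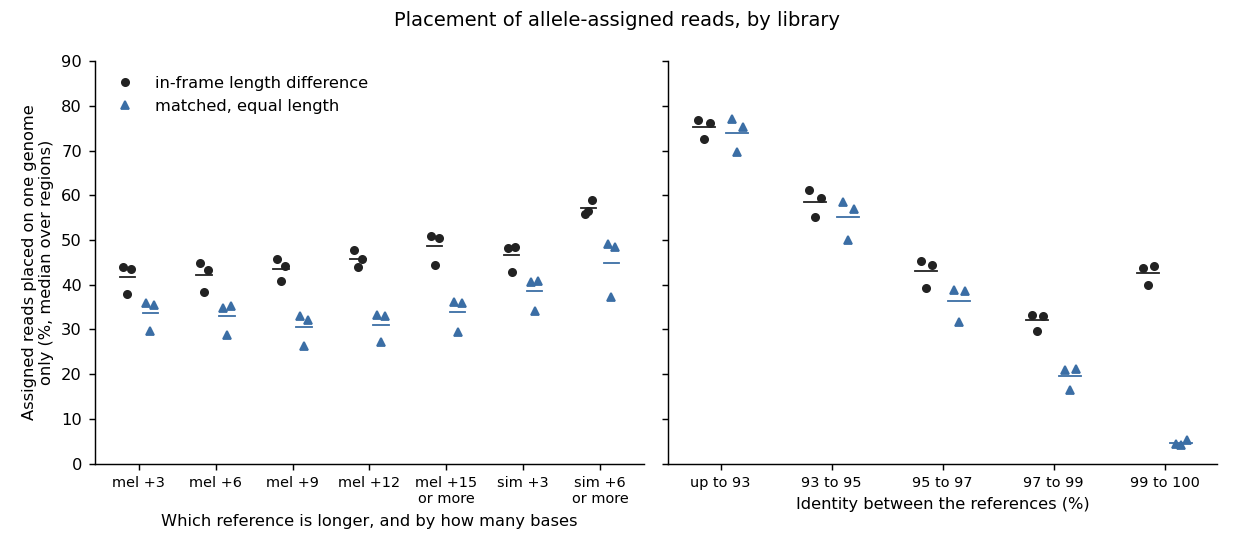
Share of assigned reads placed on one genome only (vertical axis, percent, median over regions), by length difference in bases (left; mel, longer in D. melanogaster; sim, longer in D. simulans) and by identity between the references (right). Circles are in-frame regions and triangles matched equal-length regions, 1 mark per library, with lines at the mean of 3 libraries; the largest gap is over 99% identity, with 42.6% against 4.60%.

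Both alleles had this excess over the matched equal-length regions. In regions longer in D. melanogaster, the median share placed on one genome was 43.3% of D. melanogaster reads, against 33.4% in the matches, and 41.5% of D. simulans reads, against 31.6%. In regions longer in D. simulans, it was 47.9% of D. melanogaster reads, against 39.4%, and 46.4% of D. simulans reads, against 36.8%. Each of these differences was positive in all 3 libraries.

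A comparison with length differences that break the codon rule was added after the data were seen. For 2499 tested in-frame regions, matches on identity and length were found among regions whose difference was 1 base more or 1 base less and therefore no multiple of 3. Calls were made in 40.6% of the in-frame regions and 43.0% of these matches. The median share placed on one genome was 42.2% in the in-frame regions and 44.2% in the matches, with differences of -1.93, -2.64 and -1.62 percentage points in replicates 1 to 3 and a mean of -2.07 ± 0.524 (SD, two-sided exact permutation p = 0.25). Median log2 ratios were 0.11 in the in-frame regions and 0.12 in the matches. In-frame differences thus went with slightly fewer single-genome reads than differences 1 base longer or shorter, in all 3 libraries.

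The 2 kinds of reads gave different allele ratios in some regions. Of the 2300 in-frame regions with a mean of at least 20 reads of each kind, 333 (14.5%) differed between the kinds by edgeR's interaction test at an adjusted p under 0.05, against 14.0% of all 20143 regions tested in this way. The D. melanogaster ratio was higher in reads placed on one genome in 223 (9.70%, against 10.0% of all regions tested) and lower in 110 (4.78%, against 3.97%). As a median, it was 0.17 on the log2 scale in reads placed on one genome and 0.08 in reads placed on both. Across these regions, which share their libraries and are not independent replicates, the 2 ratios correlated with a Pearson r of 0.597 and a Spearman rho of 0.580.

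Imbalance was called from reads on one genome in 939 of these 2300 regions (40.8%, against 37.0% of all 20143) and from reads on both in 736 (32%, against 31.3%). Among regions with enough reads of the one kind, whatever the other, the first gave 1028 calls in 2497 in-frame regions (41.2%, against 38.4% of all so tested), and the second 765 in 2482 (30.8%, against 26.0%). Both kinds gave a call in 477 of the 2300 (20.7%, against 19%), or 50.8% of the calls of the first kind and 64.8% of those of the second. Of these calls, 445 had the same direction in both kinds (318 for the D. melanogaster and 127 for the D. simulans allele) and 32 (6.71%, against 8.08% over all regions) had opposite directions. The ratios differed by 2-fold or more in 139 regions (6.04%, against 8.54%).

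Opposite directions occurred in well-read regions. A region of 639 bases, in which D. simulans was longer by 6, had 3190, 2196 and 3121 D. melanogaster reads against 6609, 4572 and 6967 D. simulans reads placed on one genome. Of the reads placed on both, 14427, 17452 and 15224 were D. melanogaster and 8493, 11269 and 9572 D. simulans. The 2 kinds favoured different alleles in all 3 libraries, and the log2 ratios differed by -1.78 ± 0.07 (edgeR interaction, adjusted p = 2.09e-25). All reads together gave a called log2 ratio of 0.23, so that the direction of this call depends on which reads are counted.

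A region of 1457 bases, in which D. simulans was longer by 15, had 562, 488 and 617 D. melanogaster reads against 1609, 1685 and 1915 D. simulans reads placed on one genome. Of the reads placed on both, 221, 276 and 254 were D. melanogaster and 121, 227 and 197 D. simulans. The kinds again pointed to different alleles in every library, with a difference of -2.12 ± 0.12 (edgeR interaction, adjusted p = 3.55e-19). In F694_SI both kinds pointed to D. melanogaster, with 3595, 3043 and 3808 D. melanogaster against 66, 85 and 100 D. simulans reads on one genome, and 1136, 1214 and 1252 against 171, 161 and 155 on both. Of the 10 largest ratios of each sign, 8 toward D. melanogaster and 8 toward D. simulans were fitted from reads placed on both genomes. All of these had the same fitted direction there. The rest had too few such reads for a fit. Among them, the region of 719 bases had 5, 1 and 5 D. melanogaster against 10, 8 and 11 D. simulans reads. These few reads leaned opposite to its call in every library. The region of 1025 bases had 2, 1 and 1 against 5, 21 and 9, the direction of its call. A region of 292 bases had 8, 8 and 6 against 6, 11 and 6, with no shared direction. S32383_SI had 2 of each allele, in replicate 1 alone. In some of the fitted regions the ratio from reads on both genomes was much smaller. A region of 265 bases (D. melanogaster longer by 3) had a log2 ratio of 3.40 on one genome and 0.15 on both, where 69, 102 and 91 D. melanogaster reads stood against 74, 70 and 92 D. simulans reads (edgeR interaction, adjusted p = 6.58e-18). A region of 400 bases (D. melanogaster longer by 3) had -6.28 on one genome and -0.49 on both, where 15, 13 and 18 D. melanogaster reads stood against 15, 25 and 25 D. simulans reads (edgeR interaction, adjusted p = 1.49e-11).

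**Figure D5:**
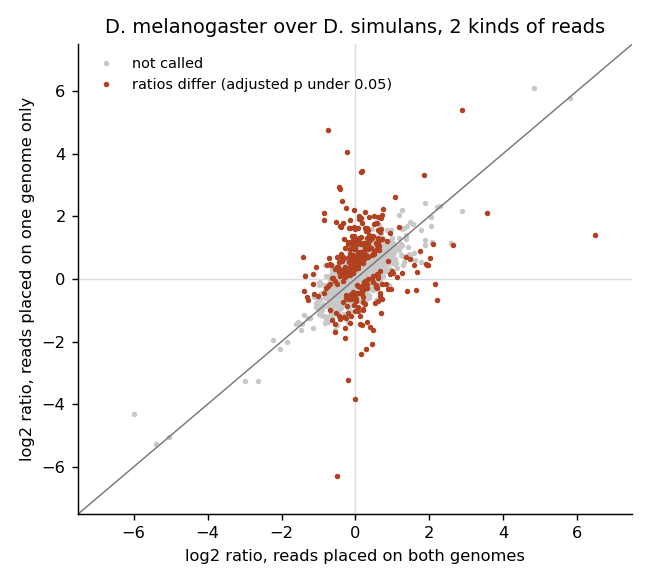
Log2 ratio of D. melanogaster over D. simulans reads from reads placed on one genome only (vertical axis) and from reads placed on both genomes (horizontal axis), 1 point per region for the 2300 in-frame regions with enough reads of each kind. Red points are the 333 regions whose 2 ratios differ at an adjusted p under 0.05, grey points the others, and the diagonal marks equal ratios.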

How the data were processed

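RNA from 3 pools of F1 hybrid heads was compared between the 2 alleles within each library. The deposited tables hold raw counts of reads per exonic region in 10 match classes, per the file headers: 2 unassigned classes and 4 classes per allele. Reads were aligned with Bowtie, per the submitters' processing notes. The sources used here do not give the Bowtie version, build, annotation, limits on gaps and mismatches, or if pairs were counted once. The authors also deposited region lengths, percent identity, percent of altered positions and a coverage signal, per the file headers; the coverage signal was not used.

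The 4 classes of each allele were summed. All 33303 regions with a mean of at least 20 assigned reads per library were tested with edgeR 4.0.16 in R 4.3.3 (quasi-likelihood F test, replicate as a block, 1 library size per library, no scaling between alleles, Benjamini-Hochberg adjusted p under 0.05). The block pairs the 2 alleles, which share an RNA pool in each library. Standard errors equal the ratio (log2) over the root of F. Library ratios used a pseudocount of 0.5. The interaction test compared allele ratios between reads placed on one genome and on both. Medians of matched regions were weighted so that each member counted once. DESeq2 1.42.0 was an alternative. The fit was run on simulated counts with 50 regions altered at each fold. It recovered 6 of 50 at 1.25-fold, 21 at 1.5-fold, 41 at 2-fold and 50 at 4-fold, and called 6 unaltered regions. Every simulated region had the same spread, so this could not show errors that are too small for more variable regions.

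The 3 pools were independent, each read in its own lane. The edgeR spread comes almost entirely from all regions together (median of 776 prior degrees of freedom), so its SE and p can be too small for a region whose libraries vary more than most. An exact two-sided sign-flip test cannot go below 0.25. Named regions are, per direction, the 10 largest ratios, the 5 with the most reads and the 3 with no read of the other allele, and besides the 5 with the most reads not called and the 5 per sign with the largest length difference; values are given for the leading ones, and identifiers for the first of the first 2 lists. Members and lists were chosen with earlier results of these data known.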

Additional observations from a re-analysis of the deposited data

Results flagged for a closer look

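Reads outside the allele comparison were present in some regions with an in-frame length difference. Of the 450 regions with under 20 assigned reads per library, 13 had a mean of 20 or more reads that matched both references equally. The largest, of 475 bases, 3 bases longer in D. melanogaster and with 95.55% identity, had 1570, 1295 and 1646 unassigned reads, against 1, 2 and 6 D. melanogaster reads and 6, 7 and 9 D. simulans reads. No control sample was analysed here, and a count of 0 would allow 3 reads.

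A single region of 1944 bases held 33.7% ± 16.3 (mean of 3 libraries, SD) of all unassigned reads of the in-frame regions. Replicate 2 had the highest value and replicate 3 the lowest.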

How the results depend on the processing

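Of 110 recomputed values, 84 stayed within the limits set and 26 moved. The limits were 1.5-fold for counts and 1 SD between libraries for medians. For the difference in percent called, the limit came from the exact 95% binomial interval of the percent of in-frame regions called. That interval treats regions as independent, which they are not. Calls among the 2794 in-frame regions were 1187; without the replicate block, that is without pairing the alleles of a library, they were 773, with DESeq2 606, with reads placed on both genomes 765 and with a minimum absolute log2 ratio of 0.5 300. Leaving out 1 library gave 931 to 950 calls. The median log2 ratio of 0.11 became 0.022 with TMM and 0.019 with median-ratio scaling, 0.10 per base, 0.16 with reads on one genome, 0.073 with reads on both and 0.13 with exact matches. In-frame minus matched regions, the percent called (3.91) was 9.04 with no filter, 6.99 with reads on one genome, 1.24 with reads on both and 1.88 with reads matched. The median absolute log2 ratio (-0.0040) was 0.0046 at 100 or more reads, -0.019 with no filter, 0.0099 with exact matches and 0.018 with reads matched, so its sign is not stable. The median log2 ratio (0.039) was 0.053, 0.091, 0.051 and 0.056 at 100 or more reads, with no filter, with reads on one genome and with exact matches. The share placed on one genome (9.66) was 8.88 at 100 or more reads and 11 with no filter, and 9.32 to 10.0 leaving out 1 library. Longer in D. melanogaster minus longer in D. simulans (0.032) was -0.026 with reads on both genomes. Regions whose ratio depended on placement numbered 333, 125 without the replicate block and 223 to 267 leaving out 1 library. The causes of these shifts were not tested. A pseudocount of 1 gave no value for the fitted median, which uses none.

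Depth limits single regions. With 20 to 50 reads per library, 25.5% of in-frame and 19.7% of equal-length regions were called; with 1000 or more reads, 61.9% and 67.5%. Missing calls at low depth are therefore not equality.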
